A study of Mus musculus with 14 samples.

Results

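The first chase hour in Mettl3-KO cells was examined gene by gene, by setting the labelled share of each gene's counts after 1 h of chase against that at 0 h. The labelled share is the count carrying T-to-C conversions divided by the total count of the same gene in the same library, in percent. Genes entered with 50 or more total counts in both 1 h and both 0 h libraries, which left 10956 of 36335 genes listed and of 21267 with any count in these 4 libraries. The study followed the loss of metabolically labelled RNA in paused mouse embryonic stem cells that lacked or retained Mettl3. The 2 Mettl3-KO groups used here were cells of the E14 line without Mettl3 sampled 1 h after the label was removed, with 2 libraries, and the same cells sampled at 0 h, with 2 libraries. WT E14 cells at 1 h and 0 h served as the second genotype, with 1 deep library at each time. All groups had grown for 2 weeks in 200 nM INK128, an mTOR kinase inhibitor that puts the cells into a reversible paused state, in serum and LIF on gelatin. All received 100 µM 4-thiouridine (S4U) for 12 h, with the labelled medium exchanged every 3 h. Extracted RNA was alkylated with 10 mM iodoacetamide, and libraries of the 3′ ends were made from 100 ng. The labels do not say whether the replicates came from separate cultures or whether the knockout is a single clone, and every p-value here reflects the variation among these libraries, which may be technical.

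SLAM-seq reads RNA age from a nucleoside analog: S4U built into new transcripts is alkylated and then read as cytosine where the gene has thymine. When S4U is removed, transcripts made afterwards carry no label, so the labelled share of a gene falls as old molecules are degraded and unlabelled ones are made, and stable transcripts keep their label longest. Mettl3 is the catalytic subunit of the complex that writes m6A on mRNA, a mark recognised by YTH proteins and known in mouse embryonic stem cells for shortening the life of transcripts, those of pluripotency factors included.

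The 1 h libraries of Mettl3-KO held 21497335 and 19598787 total counts, and the 0 h libraries 15858476 and 15076292. Mettl3 itself had 55 and 34 counts in the 1 h libraries of Mettl3-KO and 24 and 27 in the 0 h libraries, or 1.51 to 2.56 CPM (counts scaled to the library's total) over these 4, against 75.9 and 43.3 CPM in WT at 1 h and 0 h. It is therefore not among the genes examined. The summed level of 9 embryonic stem cell markers was 4023 to 4680 CPM at 1 h and 4066 to 5021 CPM at 0 h. The 5 primitive endoderm markers summed to at most 3.47 CPM at 1 h and 2.77 CPM at 0 h, and the 5 fibroblast markers to at most 12.4 CPM at 1 h and 11.6 CPM at 0 h. The 4 neural markers summed to 464 to 728 CPM at 1 h and 589 to 646 CPM at 0 h, and the 5 trophoblast markers to 106 to 111 CPM at 1 h and 94.5 to 104 CPM at 0 h, with Elf5 at 0 in all 4 libraries.

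The label was almost as abundant after the first hour as before it. Over whole libraries, 25.2% and 26.7% of counts carried conversions at 1 h (25.95 ± 1.08%, SD, n = 2), against 26.1% and 26.6% at 0 h (26.3 ± 0.337%, SD, n = 2). The 0 h values lie between both 1 h values, and the difference of -0.391 percentage points gave p = 1 in a two-sided exact permutation test, which cannot go below 0.3333 with 2 libraries against 2. Over the 10943 genes with enough conversions to test, the median labelled share was 30.0% at 1 h and 30.6% at 0 h. Later in the chase the median over the same genes was 18.6% in the deep 3 h library and 2.37% and 2.45% in the 8 h libraries.

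Libraries of different times differed about as much as replicates of the same time. The log2 ratio of the labelled shares of a gene had an SD over genes of 0.452 to 0.462 in the 4 pairs of a 1 h and a 0 h library, against 0.444 between the 1 h replicates and 0.478 between the 0 h replicates. In the 2822 genes with at least 1000 total counts in every library the SD was 0.167 to 0.215 between times, 0.202 within 1 h and 0.201 within 0 h. In the 3070 genes whose lowest count was from 50 up to 200 it was 0.715 to 0.725 between times, 0.688 within 1 h and 0.759 within 0 h. The replicates of a time also differed from each other in their median: the first 1 h library had a median log2 ratio of -0.093 to the second, a larger shift than the median change of -0.023 between the times.

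**Figure D1:**
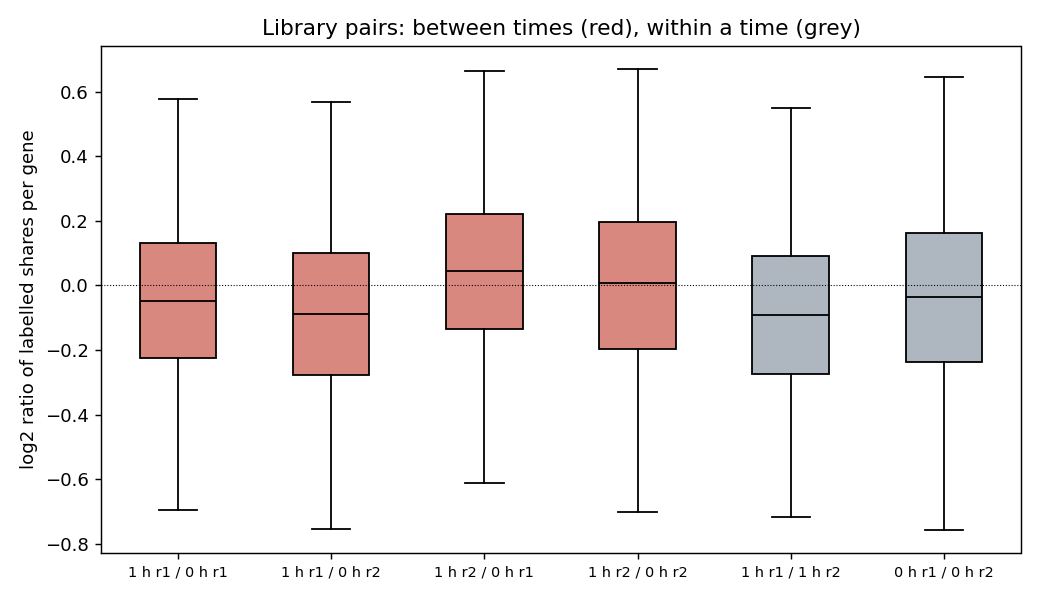
Log2 ratio of the labelled shares per gene for each pair of Mettl3-KO libraries, with 1 h over 0 h in red and replicates of 1 time in grey (r1 and r2 are replicates 1 and 2). Boxes span the quartiles with the median as a line, and whiskers the 5th to 95th percentiles. The spread between times is that seen within a time, with SDs of 0.452 to 0.462 against 0.444 and 0.478.

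For 3 genes the change in labelled share passed the test. The conversion counts were tested with edgeR's quasi-likelihood test, taking each gene's total count in the library as offset, and p-values were adjusted over the 10943 genes with the Benjamini-Hochberg method. At an adjusted p of 0.05, 2 genes (0.0183% of those tested) had a lower share at 1 h, Rbbp8 and Smc2. A higher share was called in 1 gene (0.00914%), Nudt5. At an unadjusted p of 0.05, 223 genes (2.04%) were lower at 1 h and 139 (1.27%) higher. Both 1 h libraries lay below both 0 h libraries in 1885 genes (17.2%) and above both in 1338 genes (12.2%). With 2 libraries against 2, such separation is frequent among unchanged genes. It therefore describes values here and in the lists below, and does not mark a gene as changed.

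Most genes stayed near their starting share. The log2 change, 1 h over 0 h, had a median of -0.023, and its 5th and 95th percentiles were -0.48 and 0.41. It was within 0.25 of 0 in 74.3% of genes and within 1 in 98.5%, with 93 genes below -1 and 70 above 1. In the 2822 genes with at least 1000 counts in every library, 99.6% were within 0.5, and the 5th and 95th percentiles were -0.22 and 0.16. In simulated counts of the same depth, 66 genes were changed by 0.5 on the log2 scale, 67 by 1 and 67 by 2. The test called 22.7% of those changed by 0.5, 68.7% of those changed by 1 and 91.0% of those changed by 2. A halving or doubling of the share in any 1 gene could therefore be missed. Far fewer genes were called in the data, where the Benjamini-Hochberg cutoff was stricter for that reason. The simulated percentages thus overstate what the test could find in the data.

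**Figure D2:**
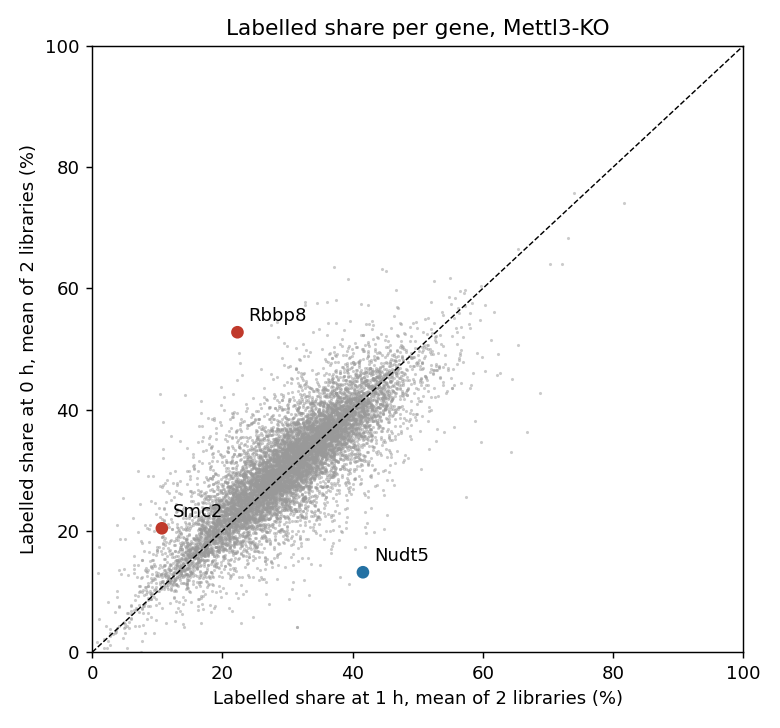
Mean labelled share of each tested gene in Mettl3-KO at 1 h (x axis, %) and at 0 h (y axis, %), each the mean of 2 libraries. The dashed line marks equal shares. Rbbp8 and Smc2 (red) had a lower share at 1 h and Nudt5 (blue) a higher one, and the other genes are grey.

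Rbbp8, which encodes CtIP, a factor that trims DNA ends for repair by homologous recombination, lost the most label of the called genes. The gene (ENSMUSG00000041238.16) lies at chr18:11633276-11743207 in RefSeq's annotation of GRCm38. Its labelled share was 25.5% and 19.1% in the 1 h libraries, from 115 of 451 and 97 of 507 counts, against 54.5% and 51.1% in the 0 h libraries, from 213 of 391 and 142 of 278 counts. The times do not overlap, and the means were 22.3 ± 4.50% at 1 h and 52.8 ± 2.40% at 0 h (SD, n = 2 each). The log2 change was -1.25 with a standard error of 0.231 and an edgeR adjusted p of 0.00521. Its total level was 21.0 and 25.9 CPM at 1 h and 24.7 and 18.4 CPM at 0 h, so the amount of its RNA overlapped between the times while the share fell. In bulk RNA, fewer cells with a transcript and less of it per cell cannot be told apart. Later in the chase its share was 17.8% at 3 h and 0.610% and 0.300% at 8 h. In WT the share was 19.7% at 1 h and 45.1% at 0 h, and 29.7% at 3 h. Without the second 1 h library the edgeR adjusted p of Rbbp8 was 0.666.

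Smc2, a core ATPase subunit of the condensin complexes that compact chromosomes in mitosis, was the other gene to lose label. The gene (ENSMUSG00000028312.19) lies at chr4:52439221-52488365 in the same annotation, which also holds the overlapping Tmc4-ps. Its share was 12.9% and 8.54% at 1 h, from 564 of 4381 and 462 of 5413 counts, against 21.9% and 18.98% at 0 h, from 852 of 3889 and 517 of 2724 counts. Both 1 h libraries lie below both 0 h libraries. The log2 change was -0.94 with a standard error of 0.154 and an edgeR adjusted p of 0.00521. At 3 h its share was 17.5%, above both 1 h values, before 3.15% and 2.46% at 8 h, so the low 1 h values do not lie on a steady decline. In WT the share was 18.9% at 1 h and 37.0% at 0 h. Without the second 1 h library the edgeR adjusted p of Smc2 was 0.340.

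Nudt5, a Nudix hydrolase that cleaves ADP-ribose, had a higher share at 1 h. Its share (ENSMUSG00000025817.12) was 45.2% and 38.01% at 1 h, from 145 and 122 of 321 counts in each library, against 16.1% and 10.3% at 0 h, from 96 of 598 and 56 of 542 counts. The times do not overlap, and the means were 41.6 ± 5.07% at 1 h and 13.2 ± 4.05% at 0 h (SD, n = 2 each). The log2 change was 1.65 with a standard error of 0.277 and an edgeR adjusted p of 0.0016. Its total level was 14.9 and 16.4 CPM at 1 h, against 37.7 and 35.95 CPM at 0 h, a log2 difference of -1.23 with a standard error of 0.354 that did not pass over all genes (edgeR adjusted p = 0.999). The higher share thus came with a lower total level in both 1 h libraries, and whether the labelled RNA itself rose was not tested. The share at 3 h was 17.1%, and at 8 h 1.43% and 3.42%. In WT it was 35% at 1 h and 43.4% at 0 h. Nudt5 lies at chr2:5845034-5870820 (GRCm38, the build called mm10), where RefSeq also annotates the overlapping Cdc123 and Gm13199. No source used here says whether counting used the strand, so reads of overlapping genes cannot be told apart. The edgeR adjusted p of Nudt5 was 0.144 without the first 1 h library and 0.0826 without the second.

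The calls also depended on the test. DESeq2 called Nudt5 and Smc2 but gave Rbbp8 an adjusted p of 0.0505, and limma on the log2 share called none of the 3, with 271 genes lower and 194 higher at an unadjusted p of 0.05. With shares taken relative to the other genes of the library, edgeR called Nudt5 alone and gave Rbbp8 an adjusted p of 0.0561 and Smc2 0.884.

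**Figure D3:**
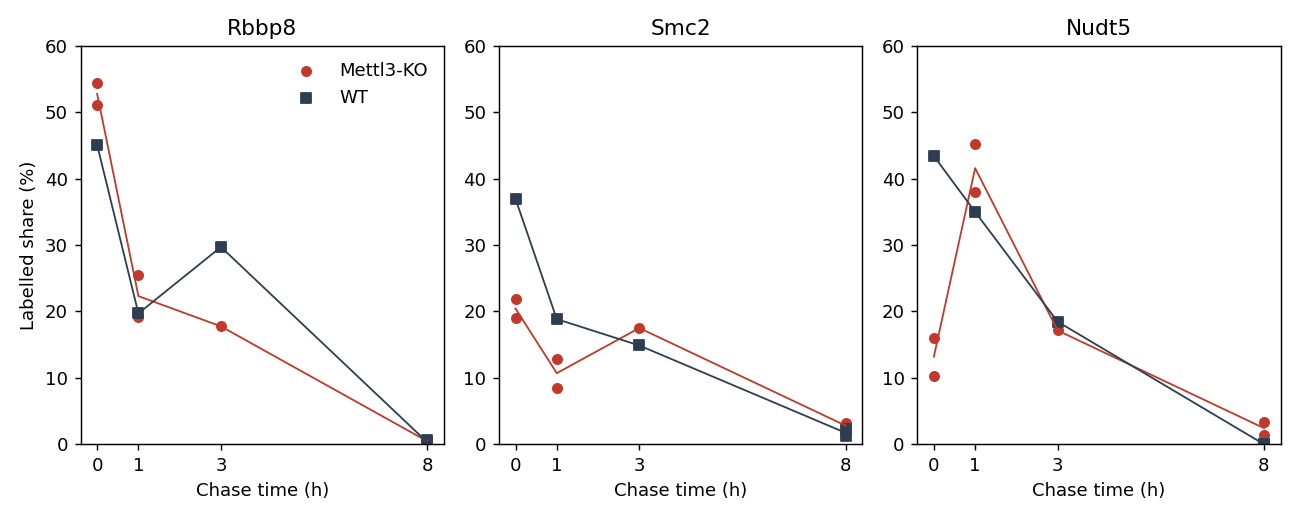
Labelled share (%) of Rbbp8, Smc2 and Nudt5 against chase time (h) in Mettl3-KO (red circles) and WT (dark squares), with a point for each deep library and a line through the means. In Mettl3-KO, Rbbp8 and Smc2 were lower at 1 h than at 0 h and Nudt5 was higher, while all 3 were lower at 1 h in WT.

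The genes that came next in the ranking did not pass. Usp48, a deubiquitinase, had 14.1% and 13.8% at 1 h and 19.4% and 18.5% at 0 h, a log2 change of -0.44. Bckdha, a subunit of the dehydrogenase that breaks down branched-chain amino acids, had 15.3% and 15.9% at 1 h and 24.1% and 28.6% at 0 h, a log2 change of -0.76. Sema6c, a transmembrane semaphorin, had 11.9% and 8.92% at 1 h and 22.7% and 21.8% at 0 h, a log2 change of -1.09. On the other side, Slc9b1, of the sodium-proton exchanger family, had 13.8% and 20.3% at 1 h and 10.7% and 7.77% at 0 h, a log2 change of 0.87. The 4 genes do not overlap between the times and each had an edgeR adjusted p of 0.274.

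Behind them every edgeR adjusted p was 0.999 or more. Dido1, which encodes chromatin-binding PHD finger proteins, had 8.62% and 4.30% at 1 h and 15.3% and 12.2% at 0 h, and Acin1, a protein of the exon junction complex, had 39.6% and 35.7% at 1 h and 48.7% and 49.7% at 0 h. Higher at 1 h in both libraries were Rsf1, a chromatin remodelling subunit, with 29.2% and 35.4% at 1 h and 25.1% and 19.6% at 0 h, and Atad5, which unloads the replication clamp, with 28.0% and 41.4% at 1 h and 20.7% and 23.8% at 0 h. Dkc1, the pseudouridine synthase of H/ACA particles, had 21.7% and 15.7% at 1 h and 14.6% and 14.2% at 0 h. EdgeR was also run on the 2822 genes with at least 1000 counts in every library. Dido1 and Polr1d, a subunit of RNA polymerases I and III, passed as lower with Smc2, and 0 genes passed as higher. Rbbp8 and Nudt5 had fewer counts and were not among these 2822 genes.

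The count of 50 that admits a gene is a fixed limit and not a property of the gene. Among genes whose lowest count was exactly 50, Accs had shares of 25.6% and 17.4% at 1 h and 26% and 20% at 0 h. Among those at 49, just outside, Anxa8 had 22.0% and 19.8% at 1 h and 20.4% and 12.2% at 0 h. Myc, which drives growth and is transcribed into a short-lived mRNA, was also outside, with 49 counts in the second 1 h library. Its share was 37.5% and 26.5% at 1 h, from 582 and 49 counts, and 50.7% and 46.2% at 0 h, from 556 and 223 counts.

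Transcripts known for fast turnover were looked at first among 32 gene lists, in none of which any member passed the test in either direction. Of 34 immediate early genes, 23 were tested, and their median log2 change was -0.13 beside -0.023 over all genes. In 6 of them (26.1%, beside 17.2% of all genes tested) both 1 h libraries lay below both 0 h libraries, and in 1 (4.35%, beside 12.2%) above. The log2 change was above 0 in 8 of the 23, up to 0.66. Zfp36, an RNA-binding protein that directs AU-rich mRNAs to decay, had 12.6% and 17.4% at 1 h and 28.5% and 29.8% at 0 h, from 84 to 137 counts a library. Its log2 change of -0.96 had a standard error of 0.586 and an unadjusted edgeR p of 0.106. Egr1, a growth-factor-induced transcription factor, had 18.8% and 19.6% at 1 h and 20.2% and 27.0% at 0 h. Its times do not overlap, yet its log2 change of -0.29 had a standard error of 0.167 and ranged from -0.49 to -0.074 with 1 library left out.

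Signalling feedback genes showed values of both directions. Of 30 tested, 6 (20%) were lower in both 1 h libraries and 3 (10.0%) higher, close to the 17.2% and 12.2% of all genes, with a median log2 change of -0.065. Id1, an inhibitor of basic helix-loop-helix factors induced by BMP signals, had 21.5% and 25.7% at 1 h and 34.2% and 37.0% at 0 h, a log2 change of -0.59. Id3, of the same family, had 33.5% and 41.2% at 1 h and 52.0% and 46.1% at 0 h, a log2 change of -0.40. Both Id genes were lower in each 1 h library, with unadjusted edgeR p-values of 0.00871 for Id1 and 0.00274 for Id3. With 1 library left out the log2 change ranged from -0.73 to -0.47 in Id1 and from -0.55 to -0.25 in Id3. The total level of Id1 was 38.1 and 44.5 CPM at 1 h, against 22.1 and 21.9 CPM at 0 h. That log2 difference of 0.92 had a standard error of 0.346 and did not pass over all genes (edgeR adjusted p = 0.999). The lower share of Id1 thus came with a higher total level, and whether its labelled RNA itself fell was not tested. Id3 had 143 and 85.0 CPM at 1 h and 82.3 and 88.4 CPM at 0 h, which overlap. Socs3, the feedback inhibitor of LIF signalling, had 34.1% and 43.6% at 1 h and 34.6% and 31.8% at 0 h, and its times overlap.

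None of the pluripotency factors passed the test in either direction. Of 26 tested, 5 (19.2%, beside 17.2% of all genes) were lower in both 1 h libraries and 0 (beside 12.2%) higher, with a median log2 change of -0.030. Sox2 had 23.4% and 27.7% at 1 h and 27.6% and 24.98% at 0 h, and Nanog had 24.2% and 27.7% at 1 h and 27.8% and 26.8% at 0 h. Klf4 had 36.6% and 32.3% at 1 h and 35.3% and 35.7% at 0 h, and Pou5f1, which encodes OCT4, had 18.8% and 21.9% at 1 h and 26.1% and 20.3% at 0 h. The times overlap in all 4 of these factors. Zfp42, the REX1 gene of naive cells, had 42.4% and 30.8% at 1 h and 51.4% and 47.2% at 0 h, a log2 change of -0.39 with an unadjusted edgeR p of 0.016, and -0.68 to -0.22 with 1 library left out. Mycn, the MYC family member abundant in these cells, had 35.2% and 39.1% at 1 h and 37.7% and 39.5% at 0 h, which also overlap. By 3 h, Mycn had 10.4%, Nanog 12.2% and Sox2 10.3%, all below their 1 h values in the single deep library of that time, and Klf4 had 21.3%. Pou5f1 had 20.4% at 3 h, between its 1 h values.

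Markers of the primed epiblast, the state after implantation, were few. Of 14 tested, 6 (42.9%, beside 17.2% of all genes) were lower in both 1 h libraries and 2 (14.3%, beside 12.2%) higher, with a median of -0.085. Zic5, a zinc finger factor, had 26.4% and 28.1% at 1 h and 30.6% and 33.7% at 0 h, while Pou3f1, the OCT6 gene, had 33.2% and 33.7% at 1 h and 31.8% and 28.0% at 0 h. Of 8 neural genes, 2 (25%, beside 17.2%) were lower in both 1 h libraries and 3 (37.5%, beside 12.2%) higher, with Sox1 at 14.6% and 21.9% at 1 h and 30.4% and 37.0% at 0 h, and Stmn3 at 26.7% and 26.3% at 1 h and 11.8% and 15.6% at 0 h.

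Some hosts of small nucleolar RNAs are protein-coding and others are spliced noncoding transcripts, and the exons of some of the latter are quickly degraded. Of 14 such hosts and long noncoding RNAs tested, 6 (42.9%, beside 17.2% of all genes) were lower in both 1 h libraries and 1 (7.14%, beside 12.2%) higher. The median log2 change was -0.062, with 6 of the 14 above 0, up to 0.45. Snhg12 had 19.6% and 26.6% at 1 h and 27.8% and 30.9% at 0 h, a log2 change of -0.34 with an unadjusted edgeR p of 0.0225, and -0.58 to -0.14 with 1 library left out. Snhg20 had 13.5% and 13.4% at 1 h and 15.3% and 18.6% at 0 h. Gas5, with 9608 counts or more in each library, had 24.2% and 26.4% at 1 h and 28.3% and 28.0% at 0 h, a log2 change of -0.15 with a standard error of 0.0848 and a range from -0.22 to -0.093 with 1 library left out. None of the 14 passed, and lncRNAs as a class had a median of -0.046 over 131 genes.

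Among genes of the translation apparatus, list medians lay on both sides of the -0.023 of all genes, with no member past the test. The 63 translation factors had a median of 0.0041, with 12 (19.05%) lower in both 1 h libraries and 7 (11.1%) higher, beside 17.2% and 12.2% of all genes. Of 23 aminoacyl-tRNA synthetases, which charge tRNAs with amino acids, 8 (34.8%, beside 17.2% of all genes) were lower in both 1 h libraries and 0 (beside 12.2%) higher, with a median log2 change of -0.085. Sars, the seryl-tRNA synthetase, overlapped, with 16.1% and 10.9% at 1 h and 15.5% and 24.3% at 0 h. Gars, for glycine, had 30.5% and 30.6% at 1 h and 32.3% and 36.4% at 0 h. Of 78 cytosolic ribosomal protein genes, 19 (24.4%) were lower in both and 5 (6.41%) higher, against the same shares of all genes, with a median of -0.062. Their shares were low throughout, with list medians of 15.8% and 17.7% at 1 h and 16.7% and 16.5% at 0 h. Members lay on both sides: Rps12 had 19.1% and 16.8% at 1 h and 29.9% and 25.3% at 0 h, whereas Rps28 had 21.7% and 21.5% at 1 h and 14.95% and 10.7% at 0 h. Ribosomal protein genes have many processed pseudogenes, so the counts of single members are uncertain. The 74 mitochondrial ribosomal protein genes had a median of -0.041, with 16 (21.6%, beside 17.2% of all genes) lower in both and 7 (9.46%, beside 12.2%) higher.

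RNAs encoded by the mitochondrial genome had a median change above 0, on small shares. Of 12 tested, 0 (beside 17.2% of all genes) were lower in both 1 h libraries and 4 (33.3%, beside 12.2%) were higher, with a median log2 change of 0.16. Their median shares were 10.7% and 7.54% at 1 h and 10.3% and 7.60% at 0 h. The tRNA gene mt-Tt had 14.8% and 14.5% at 1 h and 8.92% and 12.2% at 0 h, and mt-Tl1, which lies between the rRNA and Nd1 genes, had 13.9% and 16.6% at 1 h and 13.6% and 13.3% at 0 h. Neither passed, with unadjusted edgeR p-values of 0.047 for mt-Tt and 0.0513 for mt-Tl1. The 80 nuclear genes of the respiratory chain had a median of -0.042.

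Metabolic and growth programmes that mTOR governs were centred near 0. The 26 cholesterol synthesis genes had a median log2 change of 0.084, with 6 (23.1%, beside 17.2% of all genes) lower in both 1 h libraries and 4 (15.4%, beside 12.2%) higher. Pmvk, phosphomevalonate kinase, had 19.4% and 21.9% at 1 h and 27.5% and 33.2% at 0 h, and Sqle, squalene epoxidase, had 29.2% and 35.6% at 1 h and 27.2% and 22.9% at 0 h. Of 22 glycolysis genes, 2 (9.09%) were lower in both and 6 (27.3%) higher, beside the same 17.2% and 12.2%, with a median of 0.028, and Ldha, lactate dehydrogenase A, overlapped between the times, at 21.1% and 25.2% at 1 h and 23.6% and 29.6% at 0 h. The 39 genes of the MYC target and ribosome biogenesis list had a median of -0.019, and the 42 lysosome and autophagy genes had -0.017. Within the ribosome biogenesis list, Ncl, nucleolin, had 23.7% and 21.2% at 1 h and 23.9% and 27.9% at 0 h from 36108 counts or more a library.

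**Figure D4:**
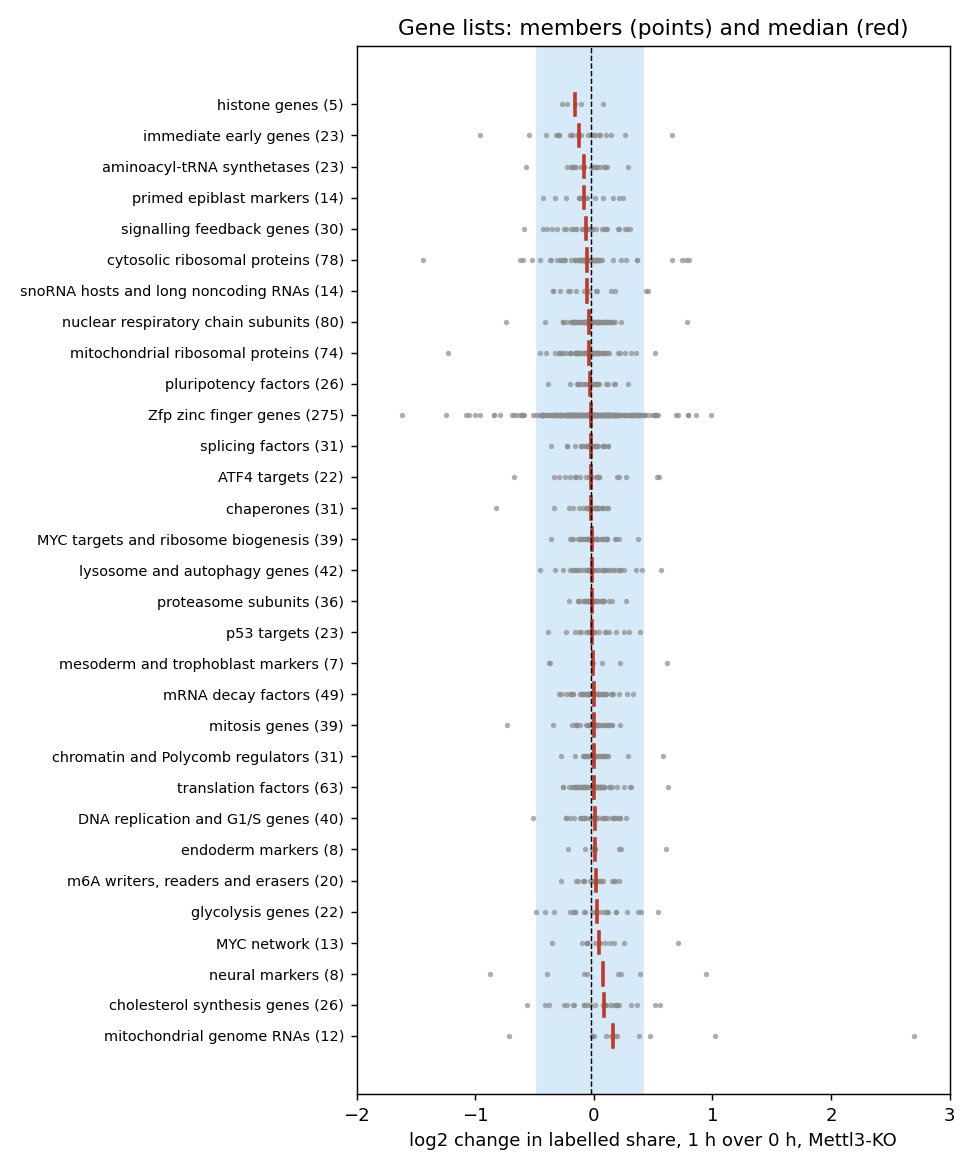
Log2 change in labelled share (1 h over 0 h, Mettl3-KO) of each tested member (grey points) of the gene lists with at least 5 tested members, with the list median in red and the number tested in brackets. The dashed line is the median over all genes (-0.023) and the band their 5th to 95th percentiles (-0.48 to 0.41). List medians run from -0.16 for 5 histone genes to 0.16 for 12 mitochondrial genome RNAs. The band describes single genes and is no measure for a median.

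The median first-hour change was alike in genes of fast and of slow later label loss. Genes were split into quartiles by their change in share in WT from 3 h to 8 h, which uses none of the 4 libraries, over 8589 genes measured in all of these groups. The median log2 change of Mettl3-KO, 1 h over 0 h, was -0.025 in the 2148 genes of fastest later loss and -0.027 in the 2147 of slowest. Both 1 h libraries lay below both 0 h libraries in 16.9% of the fastest quartile and in 16.7% of the slowest. Splits by later loss in Mettl3-KO itself gave medians of -0.017 for the fastest quartile and -0.030 for the slowest, and splits by the WT share at 0 h gave -0.042 for the lowest shares and -0.011 for the highest. In WT the medians over quartiles of later loss lay between -0.35 and -0.38. Later loss thus did not order the first-hour change in WT either, so these splits cannot show a lack of relation in Mettl3-KO.

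**Figure D5:**
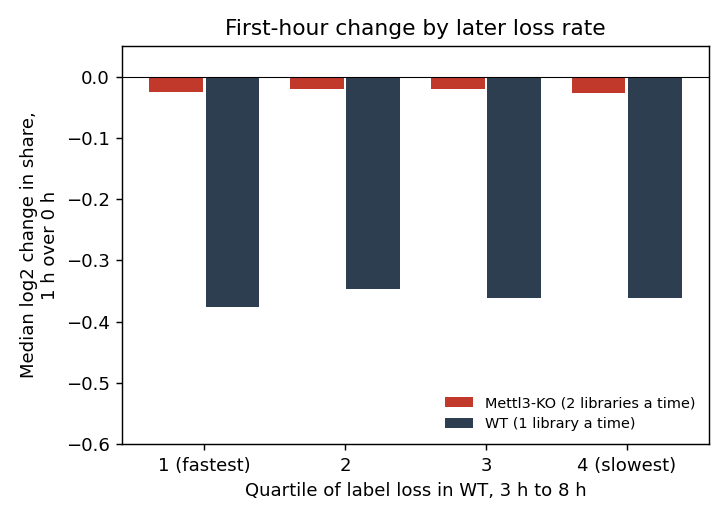
Median log2 change in labelled share, 1 h over 0 h, in quartiles of genes by their label loss in WT from 3 h to 8 h, for Mettl3-KO (red, 2 libraries a time) and WT (dark, 1 library a time). Mettl3-KO stays between -0.020 and -0.027 in every quartile and WT between -0.35 and -0.38.

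Label was kept in the Mettl3-KO libraries over this hour and lost in the WT libraries. Over the 9339 genes with 50 counts in all 6 libraries concerned, the median labelled share in Mettl3-KO was 30.3% at 1 h and 30.7% at 0 h, and in WT 34.7% at 1 h and 45.7% at 0 h. The median log2 change was -0.023 in Mettl3-KO and -0.36 in WT, and 55.9% of genes in Mettl3-KO and 87.0% in WT were below 0. The interaction of time and genotype, tested with edgeR, was higher in Mettl3-KO for 348 genes (3.73%) and lower for 3 (0.0321%), with a median of 0.35 over all genes. At an unadjusted p of 0.05 it was higher for 2050 genes (22%) and lower for 34 (0.364%). WT had a single deep library at each time, so the spread in this test comes from the Mettl3-KO libraries alone, and a difference between the genotypes cannot be told apart from a difference between single WT libraries. Relative to the other genes of each library the median moved to -0.037, and the counts were 7 higher and 2 lower; DESeq2 called 17 higher and 0 lower.

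Some pluripotency and epiblast factors passed this test on the scale of the shares, and none of the 4 named here did relative to the other genes of each library. Klf5, a factor of naive pluripotency, had 21.5% and 20.5% at 1 h and 23.2% and 22.4% at 0 h in Mettl3-KO, and 19.1% at 1 h and 36.4% at 0 h in WT, a difference of 0.81 on the log2 scale with an edgeR adjusted p of 0.00104. Its total level also differed between the genotypes, at 440 and 281 CPM at 1 h and 360 and 522 CPM at 0 h in Mettl3-KO, against 13308 CPM at 1 h and 7181 CPM at 0 h in WT, and its part in the result was not tested. Pou3f1, given above for Mettl3-KO, had 20.5% at 1 h and 52.3% at 0 h in WT, a difference of 1.51 with an edgeR adjusted p of 0.00104. Sox2 had 25.2% at 1 h and 40.7% at 0 h in WT, with a difference of 0.65 (edgeR adjusted p = 0.0102), and Mycn had 34.6% at 1 h and 55.7% at 0 h, with a difference of 0.63 (edgeR adjusted p = 0.0373). Relative to the other genes of each library, the edgeR adjusted p was 0.192 for Klf5, 0.0534 for Pou3f1, 0.649 for Sox2 and 0.717 for Mycn. Of the 25 pluripotency factors in this test, 5 (20%, beside 3.73% of all genes) passed as higher in Mettl3-KO and 0 as lower. Their median difference was 0.45 beside 0.35 over all genes. A call also depends on how many counts a gene has, and genes of like depth were not compared. Ppp1r12a, the targeting subunit of myosin phosphatase, had 12.4% and 14.1% at 1 h and 10.5% and 11.3% at 0 h in Mettl3-KO, and 12.1% at 1 h and 27.9% at 0 h in WT.

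The 3 genes called in Mettl3-KO were also set against WT. For Rbbp8 the difference between the genotypes was -0.053 with a standard error of 0.490, and for Smc2 it was 0.030 with a standard error of 0.287, neither past the test. For Nudt5 it was 1.96 with a standard error of 0.464 and an edgeR adjusted p of 0.015, a call lost relative to the other genes (0.192), without the first 1 h library (0.0532) and without the second (0.0587). Lower in Mettl3-KO were Gm6542 (-1.19), Trappc5 (-1.14), a subunit of a vesicle tethering complex, and Tpm2 (-2.67), a tropomyosin. These calls also depended on the setting. DESeq2 called none of these 3 lower genes, and Tpm2 was also lost relative to the other genes. With the shallow WT library included, Trappc5 was lost as well (edgeR adjusted p = 0.0619). Gm6542 had 18.5% and 18.9% at 1 h and 18.7% and 18.1% at 0 h in Mettl3-KO, against 58.5% at 1 h and 25.2% at 0 h in WT. The WT share rather than the Mettl3-KO share differed between times there, and the gene overlaps Ankhd1 in the RefSeq annotation.

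Total RNA, the background on which the shares move, passed the test in no gene. The total counts of replicates differed far beyond counting error. Chi-square per degree of freedom was 110.9 between the 1 h replicates and 74.3 between the 0 h replicates. The absence of calls therefore does not show that levels were unchanged. Of 10956 genes, 0 (0%) were lower and 0 (0%) higher at an edgeR adjusted p of 0.05, and DESeq2 also called 0 in each direction. At an unadjusted p of 0.05 edgeR had 129 (1.18%) lower and 48 (0.438%) higher, and DESeq2 88 lower and 60 higher. Without the first 1 h library 194 genes were lower and 4 higher. Gli1, the transcriptional effector and target of Hedgehog signals, had 150.3 and 198 CPM at 1 h and 88.8 and 84.4 CPM at 0 h, which do not overlap. At the lower end, Gm43274 had 2.47 and 3.01 CPM at 1 h and 11.6 and 7.16 CPM at 0 h.

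The authors' deposited log2 values move further than the shares in this hour. Over 10949 of the genes, the median of 1 h minus 0 h was -0.29, and between -0.40 and -0.17 in the 4 pairs of libraries. In these values each conversion count was worth 0.295 and 0.358 units at 1 h and 0.511 and 0.495 units at 0 h. The scaling by library thus differed between the times, whereas a labelled share is set against the total counts of its own library. The 1 h libraries were also deeper, with 21497335 and 19598787 total counts against 15858476 and 15076292 at 0 h. How much of the scaling follows depth was not tested.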

How the data were processed

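Per the file headers, the authors deposited conversion counts and total counts per gene for 14 libraries, and log2 values normalized by the authors on a scale the headers do not state. Per the submitters' processing notes, the mm10 build, edgeR 3.32.1, Subread 1.5.0 with featureCounts, and Trim Galore 0.4.0 were used, in roles the notes do not list. The sources used here name no aligner or conversion caller, and do not define a conversion count. Rows were matched by gene symbol. The row without a gene name, at most 0.0312% of a library, was dropped. The WT 1 h library of 49154 counts and the Mettl3-KO 3 h library of 602297 were kept out as shallow.

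Shares were tested with edgeR 4.0.16 in R 4.3.3 on conversion counts with the total count as offset (minimum of 10 conversions over the libraries), total RNA with TMM-scaled counts, and genotype by an interaction. Benjamini-Hochberg adjustment ran over all genes tested. DESeq2 1.42.0, limma 3.58.1 (pseudocounts 0.5 and 1), other filters, a replicate block and leaving out each library were alternatives. Of 10743 genes unchanged in simulated data, 22 were called. Named genes were the called ones, up to 12 of smallest p per direction, up to 4 of each of 32 lists, 5 per direction of the interaction and of total RNA, and fixed factors; the text gives a selection of these. Polr1d was named after its value was seen. The genes and lists were chosen with earlier results of these data known. In 2 of the genes conversions outnumber total counts in a library. Gene overlaps come from the RefSeq annotation. A gene of the total RNA comparison is not reported here.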

Additional observations from a re-analysis of the deposited data

Results flagged for a closer look

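The change over the first hour differed between the genotypes, by the edgeR test of the difference itself, in 348 genes where Mettl3-KO was higher and 3 where it was lower, with 1 deep WT library at each time. The 5 of smallest p among the higher genes were Klf5 with a difference of 0.81 on the log2 scale, Ppp1r12a with 1.48, Pou3f1 with 1.51, Frmd4a with 3.22 and St7l with 6.06. For St7l, the WT share was 0.735% at 1 h (1 of 136 counts, exact 95% interval 0.0186% to 4.03%, covering counting error only) and 36.2% at 0 h. Its fitted difference is no bound. For Frmd4a the WT share was 6.19% at 1 h, from 7 of 113 counts, and 47.2% at 0 h. The 3 lower genes were Gm6542 with -1.19, Trappc5 with -1.14 and Tpm2 with -2.67. Trappc5 had 12.5% and 13.0% at 1 h and 15.5% and 20% at 0 h in Mettl3-KO, and 43.3% at 1 h and 27.3% at 0 h in WT, where it rests on 164 of 379 and 303 of 1109 counts. Tpm2 had 22.3% and 16.2% at 1 h and 15.6% and 39.3% at 0 h in Mettl3-KO, which overlap, and 46.0% at 1 h and 10.6% at 0 h in WT. No time held more than 2 Mettl3-KO libraries, so outlying libraries were not looked for.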

How the results depend on the processing

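For the labelled share of Mettl3-KO, against 2 genes lower and 1 higher at 1 h, DESeq2 gave 1 lower, the scale relative to other genes 0 lower, and limma and the fits over all deep Mettl3-KO libraries or over both genotypes 0 lower and 0 higher. The labels do not say whether replicate numbers pair the libraries. The correlation of deviations was -0.0131 for shares, which cannot settle this because counting noise also lowers it. The fit with a replicate block gave 6 lower and 4 higher. A minimum of 1000 counts, chosen after seeing the data, gave 3 lower and 0 higher. Rbbp8 and Nudt5 had fewer counts and were not tested in that fit. Leaving out each library in turn gave 0 to 8 lower and 2 to 7 higher. The other filters kept the same 3 genes. Total RNA ranged over the left-out libraries from 0 to 194 lower and 0 to 4 higher. For the genotype difference, against 348 higher and 3 lower, DESeq2 gave 17 higher and 0 lower, the relative scale 7 higher with a median of -0.037, inclusion of the shallow WT library 124 higher, and left-out libraries 67 to 426 higher and 2 to 8 lower. The cause was not tested. The library-wide difference ranged from -1.16 to 0.373 points without each library. Some signs turned with 1 library left out. Log2 changes in share then ranged from -0.13 to 0.020 in Mycn, -0.17 to 0.021 in Nanog, -0.14 to 0.043 in Klf4, -0.17 to 0.076 in Sox2 (0.034 without the first 0 h library) and -0.35 to 0.0077 in Pou5f1. Changes in total RNA ranged from -0.065 to 0.39 in Rbbp8 and -0.059 to 0.45 in Smc2. The genotype difference ranged from -0.27 to 0.14 in Rbbp8 and -0.29 to 0.30 in Smc2, where it was -0.36 on the relative scale. Depth limits single genes: the median standard error of the log2 change was 0.210 over all genes and 0.126 above 1000 counts.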

Other observations

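Some gene groups not described above were also centred near 0. The 20 m6A writers, readers and erasers tested had a median log2 change of 0.020, with 3 (15%) lower in both 1 h libraries and 4 (20%) higher. The 49 mRNA decay factors had a median of -0.0016, with 6 (12.2%) lower and 8 (16.3%) higher. The 275 Zfp zinc finger genes, many of which have unstable mRNAs, had a median of -0.027, with 48 (17.5%) lower and 40 (14.5%) higher. The 31 splicing factors had a median of -0.027, with 5 (16.1%) lower and 1 (3.23%) higher. The 23 p53 targets had a median of -0.015 and the 36 proteasome subunits -0.015. These shares of genes compare with 17.2% lower and 12.2% higher over all genes tested, and no member of these lists passed the edgeR test.

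Library-wide labelled shares of the 2 shallow libraries lay apart from the deep library of the same group. The WT 1 h library of 49154 counts had 8.43%, beside 30.8% in the deep one, and the Mettl3-KO 3 h library of 602297 counts had 6.90%, beside 18.5% in the deep one.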
